A study of Mus musculus with 6 samples.

Results

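The genes described here encode the protein parts of the cytosolic ribosome. They were chosen by symbol: Rpl or Rps followed by a number, Rplp0 to Rplp2 and Rpsa, with at least 50 unique molecules (UMIs) summed over all libraries. Of 84 symbols that matched, 81 passed, out of 32285 genes in the files. The large subunit accounts for 49 of them and the small subunit for 32. The 81 genes lie on 19 chromosomes and gave 1490380 of 38232717 UMIs, or 3.90%. The 3 symbols below the minimum were Rpl39l with 7 UMIs, Rpl3l with 2 and Rpl10l with 0.

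The data are single-cell RNA counts from the brain of mice aged 8 to 12 weeks, from cortex and from the subventricular zone, a niche beside the ventricle that keeps neural stem cells in adults. After digestion for 30 minutes at 37 C, endothelial cells (CD31+, Glast-, CD45-) and neural stem and progenitor cells (Glast+, CD31-, CD45-) were sorted. There were 2 libraries in each of 3 groups: CT, with genotype Cx43flox/flox, GlastiKO, with genotype Cx43GlastiKO, and ECiKO, with genotype Cx43ECiKO. Cx43 is connexin 43, a gap junction protein encoded by Gja1, and the GlastiKO and ECiKO names point to loss in Glast-expressing and in endothelial cells. The labels used here name no Cre driver line, no induction scheme and no number of animals per library, and call the libraries biological replicates.

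A ribosome is built from a large subunit, which forms peptide bonds, and a small subunit, which reads the mRNA. Its proteins are made in nearly equal numbers in growing cells, and their mRNAs are among the most abundant in a cell. In mammals most of these mRNAs start with a C followed by a run of pyrimidines, the 5′ terminal oligopyrimidine tract, through which mTOR signalling and the RNA-binding protein Larp1 control their translation. A few genes of the family have a second copy, a paralog, that is used in particular tissues: Rpl3l in muscle, and Rpl10l and Rpl39l in the testis.

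The start sites show the sequence that many of these genes share. RefSeq promoter windows on GRCm38.p6 were at hand for 61 of the 81 genes, in 72 windows. A window counted as a match when the annotated start base was C and at least 4 pyrimidines (C or T) followed it. The match was present in 13 of the 61 genes (21.3%), against 3.01% of all 27025 genes with a window and 0 of 69 mitochondrial ribosomal protein genes. A looser rule, a run of at least 8 pyrimidines that starts with C and begins within 25 bases of the start on either side, held for 52.5% of the 61 genes, 17.7% of all genes and 20.3% of the mitochondrial set. Of the 13 matching genes, 8 are shown as examples of the tract, each from 8 bases before the start, read 5′ to 3′ on the gene's strand, with the pyrimidine run from the start base in capitals.
Rpl38, chr11:114668572-114668595, plus strand: gcctcgttCTTTCCCCgttctctt
Rpl35a, chr16:33056474-33056497, plus strand: ttgccttcCTCTTTCCgccatctt
Rpl14, chr9:120571509-120571532, plus strand: ccctctctCTTCTCgctgagcgcc
Rpl35, chr2:39005116-39005139, minus strand: gccctttcCTCTTTCTCTCgaacc
Rps6, chr4:86857352-86857375, minus strand: agtcgggcCTCTTTTTCgtgacgc
Rps18, chr17:33955650-33955673, minus strand: cttccgctCTCTCTTCCacaggag
Rps10, chr17:27635229-27635252, minus strand: gcacgcccCTTCCTTTCCagcctc
Rps27, chr3:90213633-90213656, minus strand: ctttcgctCCTTTCCggcggtgac
The same window is shown for 3 genes without a match at the listed start that come up in the class comparisons. Genes with and without a match were lower in astroglial sums, and the comparison was not made by motif.
Rps3, chr7:99483694-99483717, minus strand: gggtcgccgcgctgcgcggcgtca
Rpsa, chr9:120127758-120127781, plus strand: atttaaggacgtcatttccggccg
Rplp0, chr5:115559459-115559482, plus strand: ggtttcgaggaccgcctggttctc
An annotated start can lie some bases from the one the cell uses, so these letters describe the windows and not the mRNAs of these samples.

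The libraries held 7433 barcodes, from 571 to 2674 each, as stated in the labels, and 1735247 to 14859187 UMIs. Of these, 6323 had at least 300 genes and at most 20% mitochondrial UMIs, and 6059 were assigned to a class by 12 marker genes each. The classes are named by RNA markers alone and called endothelial-like, astroglial-like, oligodendrocyte-like, mural-like and so on, shortened below to the class name. All 12 own markers were detected in every endothelial, astroglial, oligodendrocyte and mural sum tested. Replicates numbered 1 held almost only endothelial barcodes (399 to 732) and replicates numbered 2 mainly oligodendrocyte (443 to 1981) and astroglial barcodes (159 to 407), with 21 to 66 endothelial ones. ECiKO replicate 2 was shallow, with a median of 786 UMIs per passing barcode, and 5 of 7428 barcode sequences occurred in 2 or more libraries. Gja1 counts did not follow the genotype names: in endothelial sums Gja1 stood at 92.6 and 108.7 CPM (counts scaled to a fixed library total) in the CT libraries, 143.5 and 130.7 in GlastiKO, and 233.8 and 209.3 in ECiKO. In astroglial sums it stood at 2558, 2505 and 2541 CPM in replicate 2 of CT, GlastiKO and ECiKO. The kit counts the 3′ end of an mRNA, and whether these counts can show the deletion was not tested. The cause of the Gja1 levels was not tested either. The genotypes could not be checked from these counts, and the groups are called by their labels throughout.

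Of the 4 classes with enough barcodes to test, astroglial barcodes gave the smallest part of their RNA to ribosomal protein genes. Each barcode was thinned to 1000 UMIs, and those with fewer were left out. In ECiKO replicate 2 this kept 76 of 159 astroglial and 662 of 1981 oligodendrocyte barcodes. CT replicate 2 kept 391 of 406 and 429 of 443. The median share in astroglial barcodes was 1.1% in CT replicate 2, 1.2% in GlastiKO replicate 2 and 1.4% in ECiKO replicate 2 (391, 397 and 76 barcodes). In oligodendrocyte barcodes of the same libraries it was 4.1%, 4.4% and 4.6%. The astroglial and oligodendrocyte values did not overlap, and within a library oligodendrocyte barcodes lay 3.13 percentage points higher (SD 0.115, n = 3 libraries), a ratio of 3.29 to 3.73.

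Endothelial barcodes lay between them, with medians of 2.7% in both CT libraries, 2.5% and 4.3% in GlastiKO replicates 1 and 2, and 2.6% in ECiKO replicate 1. GlastiKO replicate 2 was high among these 5 libraries. In ECiKO replicate 2 the median was 2.1% over only 12 barcodes. Within a library, astroglial barcodes were 1.6 points lower than endothelial ones in CT replicate 2 and 3.1 points lower in GlastiKO replicate 2. Mural barcodes, the contractile and pericyte cells around vessels, had 4.9% in CT replicate 1 and 5.7% and 5.0% in GlastiKO replicates 1 and 2, which was 2.2, 3.2 and 0.7 points above endothelial barcodes of the same library.

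**Figure D1:**
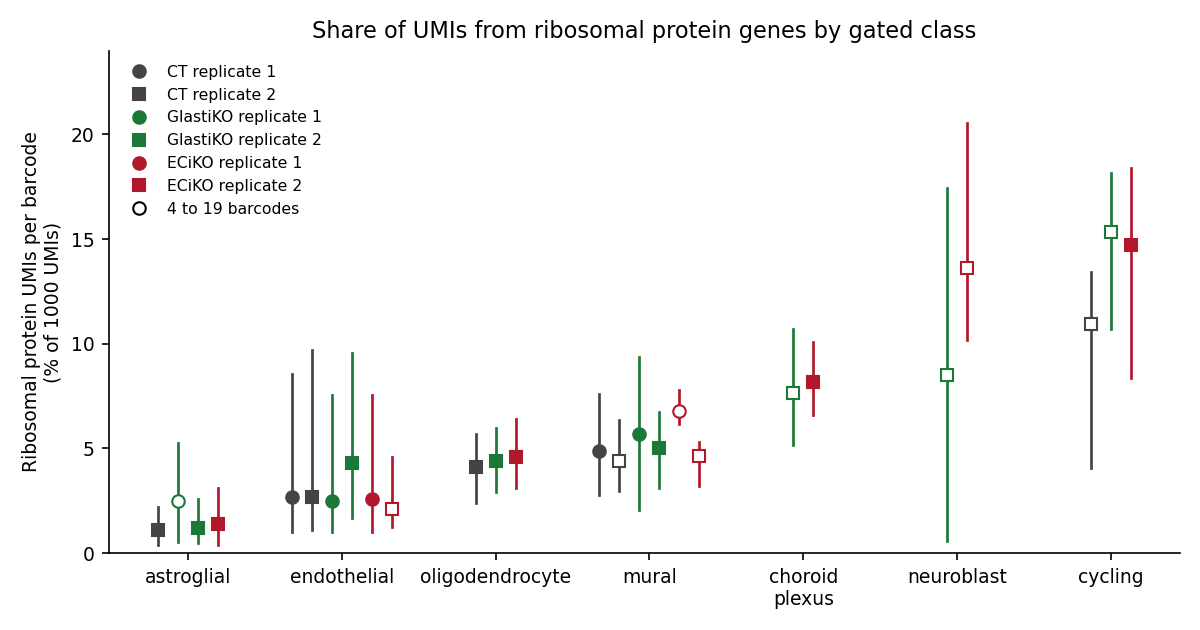
Share of UMIs from the 81 genes per barcode, in percent of 1000 UMIs, for 7 gated classes on the horizontal axis. Points are library medians, lines run from the 10th to the 90th percentile of barcodes, colours mark the groups, and open points rest on 4 to 19 barcodes. Astroglial medians with at least 20 barcodes lie at 1.1 to 1.4%, oligodendrocyte ones at 4.1 to 4.6%, and the cycling median with that number at 14.7%.

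The spread inside a class differed as well. Endothelial barcodes ranged widely, with a 10th percentile of 1.0% and a 90th percentile of 8.58% in CT replicate 1, whereas oligodendrocyte barcodes of CT replicate 2 ran from 2.4% to 5.7%. Shares of at least 5% were found in 25.3% of endothelial barcodes of CT replicate 1 and in 18.1% to 38.6% over the 5 endothelial libraries, in 24%, 32.3% and 42.0% of oligodendrocyte barcodes, but in 1 of 391, 6 of 397 and 3 of 76 astroglial barcodes of the libraries numbered 2. Shares under 2% were found in 17.5% to 35.6% of endothelial but 2.27% to 6.76% of oligodendrocyte barcodes. The share in summed endothelial UMIs, to which deeper barcodes add more, was above the median barcode: 4.21% in CT replicate 1 (95% exact binomial interval 4.19 to 4.24), 5.04% in CT replicate 2, 3.92% and 5.82% in GlastiKO, and 3.86% and 4.49% in ECiKO. The order of endothelial and oligodendrocyte cells therefore depends on the summary. Oligodendrocyte sums stood at 4.18%, 4.40% and 4.53% in CT, GlastiKO and ECiKO replicate 2, below the endothelial sum in the first 2 of these libraries, while the oligodendrocyte median was above the endothelial one by 1.4 and 0.1 points. Intervals cover counting error only.

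Signs of RNA quality differed between the classes. Malat1, an RNA kept in the nucleus, made up 13.6%, 10.5% and 12.1% of astroglial UMIs in CT, GlastiKO and ECiKO replicate 2, 5.51% to 6.1% of oligodendrocyte UMIs and 3.85% to 5.75% of endothelial UMIs. Mitochondrial UMIs made up 7.13% to 7.49% of astroglial sums, 3.93% to 5.2% of oligodendrocyte sums and 2.55% to 3.98% of endothelial sums. Mural sums, with the highest median shares of the 4 tested classes, did not have the lowest values. In CT replicate 1 and GlastiKO replicates 1 and 2 they held 6.51%, 6.25% and 8.46% Malat1. Their mitochondrial part was 5.18%, 5.19% and 2.98%. Within astroglial barcodes of CT, GlastiKO and ECiKO replicate 2 (406, 407 and 159), share and Malat1 part had Spearman correlations of -0.42, -0.26 and -0.41. For share and mitochondrial part they were -0.40, -0.45 and -0.21. In oligodendrocyte barcodes (443, 597 and 1981) they were -0.35, -0.36 and -0.50 with Malat1 and -0.14, -0.07 and 0.26 with mitochondrial UMIs. All of these parts come from the same counts. The part of Malat1 and mitochondrial UMIs in the class difference was not tested as a cause. The share was also taken over smaller totals or fewer barcodes, which does not test RNA quality. Leaving out mitochondrial genes and the 50 top genes of each class, the medians in CT replicate 2 were 1.81% in astroglial, 3.87% in endothelial and 6.27% in oligodendrocyte barcodes. In barcodes with 2 to 6% mitochondrial UMIs, a limit chosen after the data were seen, they were 1.6%, 3.15% and 4.2%. With that limit the endothelial median of GlastiKO replicate 2 was 2.95%, beside 3.05% and 3.15% in the CT libraries, whereas in barcodes with at least 1000 genes it was 4.8%, beside 3.0% and 2.7%. The classes were assigned with the same marker lists, which limits markers of other classes in advance, so their levels are no separate check of purity. Astroglial sums held 7.06 to 10.9 CPM of the endothelial list, from 3 to 7 of its 12 genes. They held 431.3 to 511.5 CPM of the oligodendrocyte list and 1235 to 1888 CPM of the oligodendrocyte precursor list. Endothelial sums held 7.09 to 186.7 CPM of the astroglial list and 397.6 to 1308 CPM of the oligodendrocyte list. The 5 erythroid markers reached 10207 CPM in endothelial sums of CT replicate 1 and 3673 CPM in ECiKO replicate 1, and their part was not tested. Within endothelial barcodes the share followed depth in 5 of 6 libraries. Spearman correlations between share and UMIs were 0.46, 0.47 and 0.46 across the 732, 453 and 399 barcodes of the libraries numbered 1. They were 0.57 across 46 in CT replicate 2 and 0.64 across 66 in GlastiKO replicate 2, but -0.31 across 21 in ECiKO replicate 2. In CT, GlastiKO and ECiKO replicate 2 they were 0.32, 0.39 and -0.27 in astroglial barcodes and -0.07, -0.25 and -0.11 in oligodendrocyte barcodes. Mural barcodes had -0.48 in CT replicate 1 and -0.21 and 0.21 in GlastiKO replicates 1 and 2. These are descriptions only, since share and depth come from the same counts.

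In the test of single genes, nearly all 81 were lower in astroglial than in endothelial sums. UMIs were summed per library and class and fitted with edgeR, with library as a block, and changes were called at a Benjamini-Hochberg adjusted p under 0.05 over 11951 genes. The astroglial sums tested came only from the libraries numbered 2. The endothelial sums of those libraries held just 46, 66 and 21 barcodes in CT, GlastiKO and ECiKO, so the comparison within libraries rests on these. Of the 81 genes 79 fell and 0 rose, where 19.5% of all genes tested were called lower and 22.1% higher. In every library 73 were lower and 1 was higher, where 20.9% and 34.7% of all genes were. The median log2 fold change was -1.30, beside 0.11 over all genes. Rpl22l1 (log2 fold change 0.48, SE 0.26, edgeR adjusted p = 0.134) and Rpl23a (-0.48, SE 0.21, adjusted p = 0.0652) did not pass. All 32 small subunit genes and 47 of 49 large subunit genes fell. DESeq2 called 75 lower and 1 higher, and the median stayed between -1.07 and -1.53 under the alternatives run.

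Rpl38, a large subunit protein known for its part in translating Hox mRNAs in the embryo, fell the most. Its scaled CPM (CPM after edgeR's library scaling) was 208.0, 323.6 and 240.0 in astroglial sums of CT, GlastiKO and ECiKO replicate 2, against 1204, 1538 and 960.7 in endothelial sums of the same libraries. The 3 libraries numbered 1 had 1429, 1587 and 1591 in endothelial sums, so the classes did not overlap. The difference was -2.22 on the log2 scale (SE 0.22, 4.65-fold lower, edgeR adjusted p = 1.13e-14). Rpl38 (ENSMUSG00000057322) lies at chr11:114668524-114672331 on mm10 in the GENCODE M21 annotation.

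Rps19, a small subunit protein whose human gene is mutated in Diamond-Blackfan anaemia, stood at 113.3, 157.5 and 169.9 scaled CPM in astroglial sums and at 550.0 to 760.1 in the 6 endothelial sums. That was a difference of -2.07 (SE 0.22, edgeR adjusted p = 3.22e-13), again without overlap. Rpl27a (-1.93), Rpl35a (-1.87) and Rps16 (-1.85) followed, all with edgeR adjusted p of 3.18e-11 or below. Rpl35a and Rps16 are proteins of the large and the small subunit, in that order. At the other end of the list, Rpl23a, part of the rim of the peptide exit tunnel, had 232.5 to 307.4 scaled CPM in astroglial and 253.8 to 458.7 in endothelial sums, and the classes overlapped.

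Against oligodendrocyte sums every one of the 81 genes was lower in astroglial sums, where 32.0% of all genes tested were called lower and 36.9% higher. In each of the 3 libraries 80 were lower and 0 higher, where 37.6% and 39.7% of all genes were. The median was -1.63, beside 0.09 over all genes, and DESeq2 called 78. The call count was 79 to 81 when any 1 library was left out. Leaving out a library numbered 1 removed no astroglial or oligodendrocyte sum, so those runs could hardly change this count. Rps3, a small subunit protein at the mRNA entry channel that also acts in DNA repair, had 117.4, 139.1 and 180.7 scaled CPM in astroglial and 725.2, 756.9 and 732.2 in oligodendrocyte sums of CT, GlastiKO and ECiKO replicate 2. Its difference was -2.39 (SE 0.20, 5.26-fold lower, edgeR adjusted p = 2.27e-18). Rpsa, a small subunit protein also known as a laminin receptor, differed by -2.37, Rps3a1 by -2.34, Rplp0, the base of the ribosomal stalk, by -2.25 and Rps6, the target of the S6 kinases, by -2.19, with SEs of 0.20 to 0.21. The smallest falls were those of Rpl10a (-0.49), Rpl7l1 (-0.53) and Rpl22l1 (-0.60). The falls ranged from -2.39 to -0.49, and whether the genes shared 1 common factor was not tested.

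**Figure D2:**
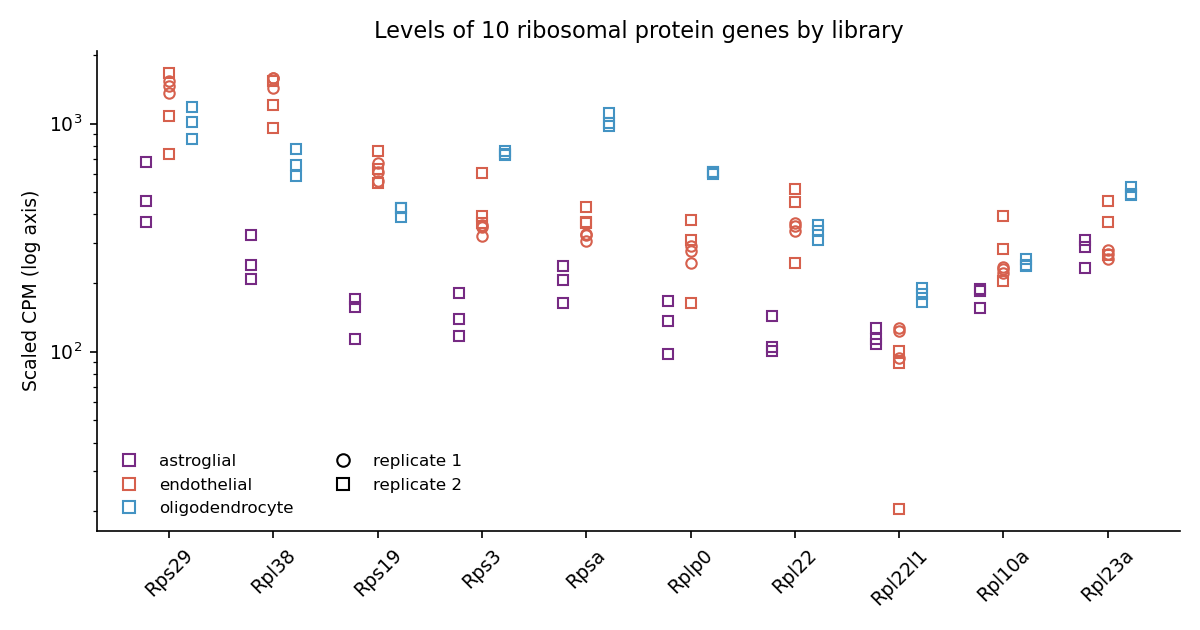
Scaled CPM on a log axis for 10 of the genes in astroglial, endothelial and oligodendrocyte sums, 1 point per library. Astroglial points lie below both other classes for Rpl38, Rps19 and Rps3, while Rpl22l1 overlaps with the endothelial points, the lowest of which (20.4) rests on 1 UMI in ECiKO replicate 2.

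Between oligodendrocyte and endothelial sums the genes split. The oligodendrocyte sums tested also came only from the libraries numbered 2, so this comparison rests on the same few endothelial barcodes. With edgeR's scaling 25 of 81 rose and 3 fell, where 25.1% of all genes were called higher and 22.3% lower, with a median of 0.27 beside 0.16 over all genes. With plain library totals and no scaling factors, an alternative chosen after the data were seen, 4 rose and 20 fell and the median was -0.19, so no direction is given for the set. In every library 37 were higher and 4 lower, where 38.5% and 19.7% of all genes were. DESeq2 called 21 higher and 3 lower. Without CT replicate 2 the count of higher genes was 16, and without GlastiKO replicate 2 it was 15.

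The genes named next kept their direction under the scalings run on them (DESeq2, edgeR's without the 81 genes, and library totals). Rpsa rose the most: its scaled CPM was 980.2, 1003 and 1112 in oligodendrocyte sums of CT, GlastiKO and ECiKO replicate 2 and 304.2 to 431.1 in the 6 endothelial sums, without overlap (log2 fold change 1.5, SE 0.21, edgeR adjusted p = 2.74e-09). Rplp0 rose by 1.04, Rpl22l1 by 1.08, Rps27a, a fusion of ubiquitin and a small subunit protein, by 0.95, and Rpl4, which lines the exit tunnel, by 0.90. Rpl4 lost its call with library totals (0.45). Rpl38 fell by 0.81 (SE 0.20, edgeR adjusted p = 5.42e-04), from 960.7 to 1591 scaled CPM in endothelial sums to 587.0 to 776.1 in oligodendrocyte sums. Rps19 (-0.54) and Rps20 (-0.49) were called lower too, but neither passed without CT replicate 2 or without GlastiKO replicate 2, and Rps20 also missed the threshold without CT replicate 1 (-0.45).

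**Figure D3:**
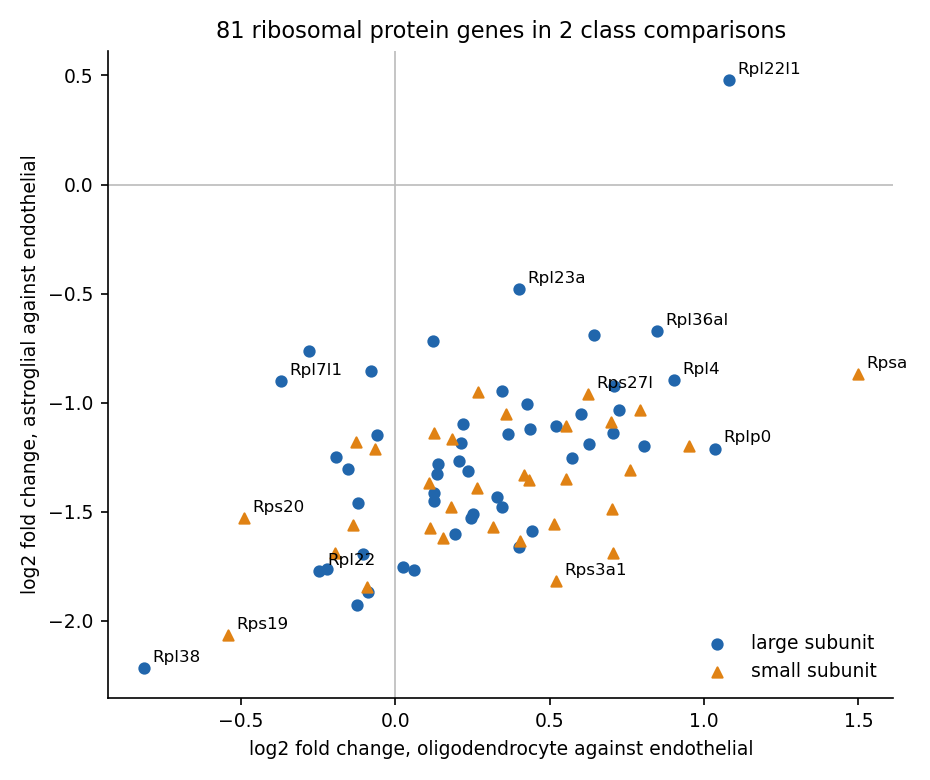
Log2 fold changes of the 81 genes, oligodendrocyte against endothelial on the horizontal axis and astroglial against endothelial on the vertical axis, circles for the large and triangles for the small subunit. Both axes share the endothelial sums. On the vertical axis 80 genes lie below 0 and Rpl22l1 lies above it, while Rpl38, Rps19 and Rps20 lie left of 0 on the horizontal axis and Rpsa lies farthest right.

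Mural sums differed from endothelial sums in 12 of the genes, 10 higher and 2 lower, where 13.8% of all genes were called higher and 16.8% lower. In every library 18 were higher and 5 lower, where 19.3% and 32.4% of all genes were. The median was 0.22, beside -0.19 over all genes. Rpl22l1 rose by 1.5 (SE 0.21, edgeR adjusted p = 1.41e-08), from 20.4 to 127.2 scaled CPM in endothelial sums to 373.3 in CT replicate 1 and 339.7 and 247.4 in GlastiKO replicates 1 and 2. Rps27l rose by 1.29, Rpl10 by 0.95, Rps16 by 0.74 and Rps2 by 0.71. Rpl10 and Rps16 missed the threshold without GlastiKO replicate 1 (0.61 and 0.51), and Rps2 without CT replicate 1 (0.61). Rps12 did not pass (-0.52, edgeR adjusted p = 0.0523). Rpl38 fell by 1.54 (SE 0.22, edgeR adjusted p = 1.07e-08) and stood at 391.7 to 612.2 scaled CPM, below every endothelial library. The count moved with the setting: DESeq2 called 24 higher and 1 lower, edgeR with DESeq2-type scaling 22 and 1, and edgeR without CT replicate 1 or GlastiKO replicate 1 called 5 and 3 higher. Only 25 to 29 barcodes stood behind each mural sum. Rps20 was called lower in the main comparison (-0.60) and was not called by DESeq2 or without CT replicate 1, CT replicate 2 or GlastiKO replicate 2. Mural sums also carried 4776 to 7268 CPM of the astroglial marker list, from 3 to 7 of its 12 genes, with Aqp4 at 0 in all 3 and Slc1a3 at 23.9 to 39.1 CPM. The fibroblast list stood at 2435 to 3299 CPM in mural sums, from 9 to 10 of its 12 genes, and at 0 to 185.8 CPM in endothelial sums. Mural sums also held 605.6 to 720.3 CPM of the oligodendrocyte precursor list, from 1 to 2 genes, and 704.7 to 817.3 CPM of the ependymal list, from 1 gene. The part of these in the mural values was not tested.

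Genes of both subunits were lower in astroglial sums, with a small tilt between the subunits. With 49 large and 32 small subunit genes, equal output per gene would give a ratio of large to small subunit UMIs of 1.53. The ratio in the tested sums was 1.40 to 1.56 in astroglial, 1.36 to 1.43 in endothelial, 1.34 to 1.40 in mural and 1.29 to 1.32 in oligodendrocyte sums, so per gene the small subunit gave more in all but the astroglial sum of CT replicate 2. Within a library, the astroglial log2 ratio was above the oligodendrocyte one by 0.17 (SD 0.068, n = 3), and above it in each of the 3 libraries (0.12 to 0.25). The astroglial and endothelial ratios differed by 0.08 (SD 0.060, n = 3) and the oligodendrocyte and endothelial ones by -0.09 (SD 0.039, n = 3). The median fall against oligodendrocyte sums was -1.55 over the 49 large subunit genes and -1.72 over the 32 small subunit genes, and against endothelial sums it was -1.25 and -1.36. No test was made of these ratios, which describe the same counts.

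Among the most abundant of the 81 genes over the endothelial, astroglial and oligodendrocyte sums were Rps29, Rpl13, Rpl38 and Rps27a. The kit counts each mRNA once at its 3′ end, so levels were compared without dividing by length. Rps29, a zinc-binding small subunit protein, averaged 501.3 scaled CPM in astroglial, 1308 in endothelial and 1015 in oligodendrocyte sums, and was the highest of the 81 in astroglial sums, as Rpl38 was in endothelial sums. The least abundant were Rpl22l1 at a mean of 128.9 over the 3 classes, Rps27l at 101.3 and Rpl7l1 at 47.2, and all 3 are paralogs.

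The pair Rpl22 and Rpl22l1 changed its balance between classes. Rpl22 binds RNA in the large subunit, can be lost without stopping growth and is known to hold down its paralog. Rpl22l1 made up 51.7%, 47.1% and 51.9% of the pair's UMIs in astroglial sums of CT, GlastiKO and ECiKO replicate 2, and 34.9%, 33.3% and 36.0% in oligodendrocyte sums of the same libraries. In endothelial sums the share was 25.2% and 16.4% in CT, 26.3% and 16.3% in GlastiKO, and 21.8% and 7.69% in ECiKO, the last from 13 UMIs (95% exact interval 0.195 to 36.0%). Mural sums had 40.9% to 46.3%, and cycling barcodes 35.8% to 37.4%. Astroglial libraries were above all oligodendrocyte and endothelial libraries, but not above choroid plexus barcodes. Those of ECiKO replicate 2 had 55.2% (95% exact interval 47.5 to 62.8%).

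Levels of the 2 genes were read apart as well. Rpl22 had 101.1, 143.4 and 105.2 scaled CPM in astroglial sums against 245.3 to 515.5 in the 6 endothelial sums (log2 fold change -1.77, SE 0.22, edgeR adjusted p = 8.97e-11). Rpl22l1 had 108.1, 127.5 and 113.2 in astroglial sums and 89.2 to 127.2 in the 5 endothelial sums other than ECiKO replicate 2. Against oligodendrocyte sums, Rpl22 fell by 1.53 (SE 0.19) and Rpl22l1 by 0.60 (SE 0.17), both with edgeR adjusted p of 8.97e-04 or below. In oligodendrocyte against endothelial sums Rpl22l1 rose (1.08, edgeR adjusted p = 1.22e-04), while Rpl22 did not pass (-0.25, SE 0.20, adjusted p = 0.343).

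Rps27l, a paralog of Rps27 induced by p53, made up 21.7%, 19% and 29.1% of its pair in astroglial sums and 25.5%, 21.7% and 22.9% in oligodendrocyte sums of CT, GlastiKO and ECiKO replicate 2. Endothelial sums had 8.70% to 14.2% and mural sums 18.3% to 24.8%, so endothelial libraries were below all libraries of these 3 classes, while neuroblast barcodes ran from 8.55% to 33.3%. Cycling barcodes ran from 28.2% to 44.1%, and choroid plexus barcodes of ECiKO replicate 2 had 39.3%. Rpl36al made up 52.4% to 55.5% of its pair in oligodendrocyte sums, 43.4% to 53.6% in astroglial sums and 32.2% to 37.7% in endothelial sums except ECiKO replicate 2, where 11 UMIs gave 54.5%. Rpl7l1, a protein linked to ribosome assembly, made up 12.4% to 25.5% of its pair in astroglial and 5.38% to 6.75% in oligodendrocyte sums, while the endothelial range of 6.67% to 16.1% overlapped with both.

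**Figure D4:**
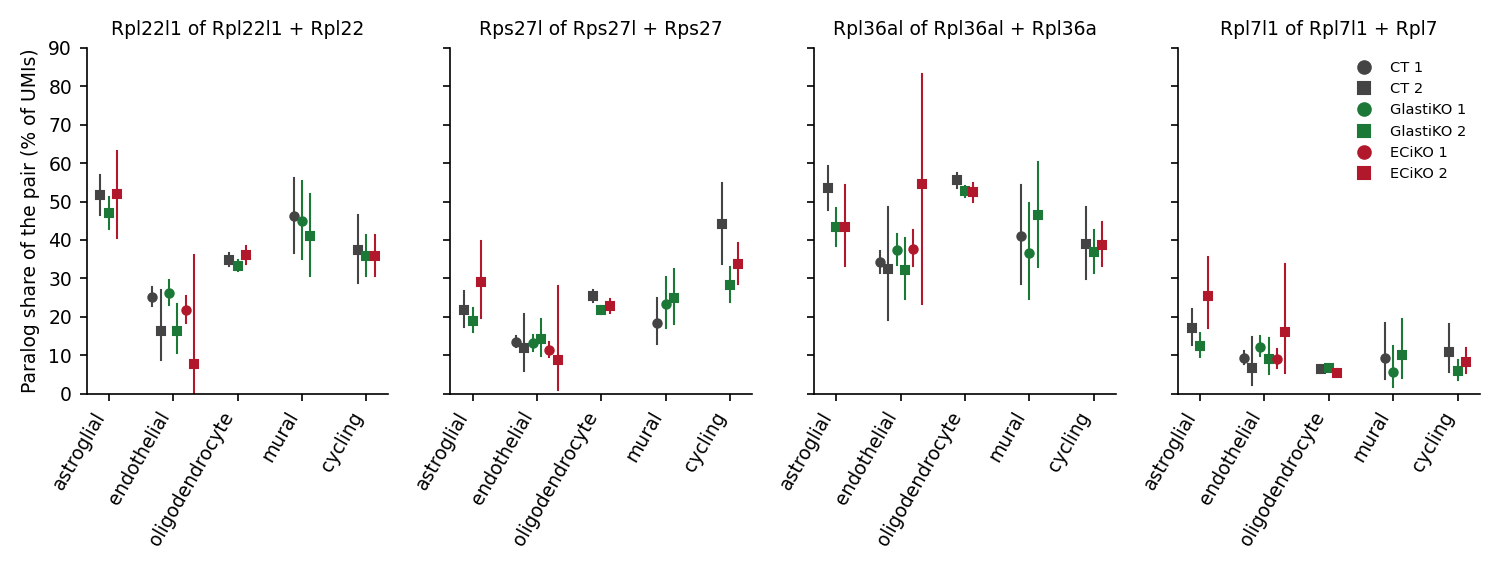
Share of 4 paralogs in the UMIs of the pair, in percent, for 5 classes, 1 point per library with its 95% exact binomial interval, coloured by group. Rpl22l1 lies at 47.1 to 51.9% in astroglial and at 7.69 to 26.3% in endothelial libraries, and Rps27l is lowest in endothelial libraries.

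The tissue-restricted paralogs were almost absent. Of the 7 Rpl39l UMIs, 6 were in endothelial barcodes, spread over the 3 libraries numbered 1, and 1 in an oligodendrocyte barcode of CT replicate 2. Both Rpl3l UMIs were in astroglial barcodes of CT replicate 2. Rpl10l had 0 UMIs, which allows a level of up to 0.0785 CPM over the series. Processed or retrotransposed copies that share sequence with a parent gene took few counts: Rps27rt had 400 UMIs, 2.36% of its sum with Rps27, and Rpl10-ps3 and Rpl36a-ps1 had 1.26% and 1.10%. Near-identical copies can share reads, and reads lost or assigned elsewhere for that reason were not measured, so these shares and the parent levels are uncertain.

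Cycling, neuroblast and choroid plexus barcodes had higher shares than these 4 classes in most libraries, on few barcodes. Cycling barcodes, which carried at least 4 of 12 cell cycle markers, had medians of 10.95% in CT replicate 2 (4 barcodes), 15.35% in GlastiKO replicate 2 (10) and 14.7% in ECiKO replicate 2 (35). All 81 genes were higher in cycling than in astroglial sums in each of these 3 libraries, where 25.5% of the 11951 genes were, with median CPM ratios of 8.89, 8.05 and 6.82 for CT, GlastiKO and ECiKO, and higher than in oligodendrocyte sums, where 30.7% were, with median ratios of 2.77, 3.28 and 3.04. Rps3 had 110.0, 135.6 and 182.3 CPM in astroglial and 1310, 1524 and 1518 in cycling sums, and Rpl22l1 had 101.2, 124.3 and 114.3 against 538.2, 548.7 and 573.8. The cycling sums held 5, 10 and 75 barcodes in CT, GlastiKO and ECiKO replicate 2. As 1 of them reached 20 barcodes, no test was made. The cycling sum of ECiKO replicate 2 also carried 6056 CPM of the neuroblast list, from all 12 of its genes, and 1845 CPM of the oligodendrocyte list, and the part of these was not tested. Neuroblast barcodes had medians of 18.4% in CT replicate 2 (3 barcodes), 8.5% in GlastiKO replicate 2 (14 barcodes) and 13.6% in ECiKO replicate 2 (6), and choroid plexus barcodes 4.25% (2), 7.65% (14) and 8.2% (34) in CT, GlastiKO and ECiKO replicate 2. Malat1 made up 1.87% to 1.97% of cycling UMIs, and its part in these shares was not tested.

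Other genes of the ribosome and of translation were read beside the family. Of ribosome parts outside the symbol rule, Fau, which encodes a ribosomal protein fused to a ubiquitin-like domain, and the scaffold Rack1 fell in astroglial against endothelial sums (-1.80 and -1.58) and against oligodendrocyte sums (-1.95 and -1.84), and neither was called between oligodendrocyte and endothelial sums. The shares of all genes called in each comparison, given above, are the background for the counts that follow. Of 20 elongation factors and other genes with terminal oligopyrimidine mRNAs, 12 fell and 0 rose in astroglial against endothelial sums, and 19 fell against oligodendrocyte sums, with Eif4a2 (-0.23) as the exception. Eef1a1, which brings aminoacyl-tRNA to the ribosome, fell by 1.34 and 2.62, and Tpt1, a growth-linked protein, by 1.97 and 2.68, in that order. Of 20 ribosome biogenesis genes 4 fell against endothelial sums, near the 19.5% of all genes that did, namely Dkc1 (-1.29), Ubtf (-1.04), Nop10 (-0.91) and Ncl (-0.73), and 14 fell and 1 rose against oligodendrocyte sums.

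Mitochondrial ribosomal protein genes, which build the separate ribosome of that organelle, were counted in the same fits. Of 78 tested, 7 rose and 1 fell in astroglial against endothelial sums, where 22.1% and 19.5% of all genes did, with a median of 0.09 beside 0.11 over all genes. Against oligodendrocyte sums 4 rose and 50 fell, where 36.9% and 32.0% of all genes did, with a median of -0.61. In oligodendrocyte against endothelial sums 35 rose and 1 fell, where 25.1% and 22.3% did. Regulators of the translation of cytosolic ribosomal protein mRNAs were called in both directions, where 22.1% of all genes were higher and 19.5% lower. Of 13 tested, 4 rose in astroglial against endothelial sums, Rps6kb2 (1.29), Mtor (1.2), Tsc1 (1.13) and Larp1 (1.04), and 3 fell, Ssb (-1.02), Cnbp (-0.91) and Eif4ebp2 (-0.69).

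The knockout groups were compared in endothelial barcodes, the 1 class present in all 6 libraries. Neither group changed any of the 81 genes past the threshold in edgeR or DESeq2, and none had an unadjusted p under 0.05 in either tool. Over all 8700 genes edgeR called 0.103% higher and 0.253% lower in GlastiKO against CT, and 0.023% higher and 0.241% lower in ECiKO against CT. The group comparison left 3 residual degrees of freedom. On simulated counts of the same depths 13% of 2-fold and 79% of 4-fold changes were recovered in ECiKO against CT. The changed genes were drawn from all with a mean of at least 20 CPM, not from the 81, and no smaller change was simulated. The power to detect changes of the size seen here was therefore not measured, and the lack of calls does not show that the genes were unchanged. Both comparisons share the CT libraries.

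In GlastiKO against CT the median log2 fold change was 0.12, from -0.11 to 0.47, beside 0.01 over all genes. It was 0.35 without GlastiKO replicate 1 and -0.13 without GlastiKO replicate 2, and -0.01 without CT replicate 1, so its sign rested on these libraries. The GlastiKO libraries were both above both CT libraries for 4 genes, Rpl7l1, Rps6, Rpl38 and Rplp1, and below them for 0, where 14.5% of all genes were above and 14.5% below. Rps6 had 401.7 and 318.3 scaled CPM in CT and 432.9 and 507.4 in GlastiKO (0.34, SE 0.29, edgeR adjusted p = 1.0). Rpl7l1 had 45.1 and 40.8 in CT and 57.3 and 71.1 in GlastiKO (0.47, SE 0.39), and Rpl39 differed by 0.33. Among the lowest values were those of Rpl21 (-0.11) and Rplp2 (-0.10).

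In ECiKO against CT the median was -0.20, from -0.52 to 0.16, beside -0.03 over all genes. It lay between -0.29 and -0.14 when any 1 library was left out. Both ECiKO libraries were below both CT libraries for 40 genes, where 18.4% of all genes were, and above them for 0, where 11.1% were. The genes are counted on the same 4 libraries and share each library's shift, so they are not 40 separate observations. Rpl21 had 654.4 and 873.2 scaled CPM in CT and 559.4 and 457.0 in ECiKO (-0.52, SE 0.31, edgeR adjusted p = 1.0), and Rpl17 537.4 and 767.1 against 472.4 and 388.5 (-0.51, SE 0.31). Rpl10 (0.16), Rps6 (0.15) and Rpl35 (0.14) were the highest. The median and the count of 40 genes use levels scaled by edgeR's factors. For replicates 1 and 2 these factors were 0.951 and 1.04 in CT and 0.939 and 1.16 in ECiKO. Without the factors, the share of summed UMIs overlapped between the groups, with 4.21% and 5.04% in CT and 3.86% and 4.49% in ECiKO. The part of the factors in the 40 genes was not tested. Between libraries of the same number ECiKO was the lower in both, and in all 3 groups replicate 2 was above replicate 1. ECiKO replicate 2 rested on 21 barcodes and 1716 UMIs of these genes.

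**Figure D5:**
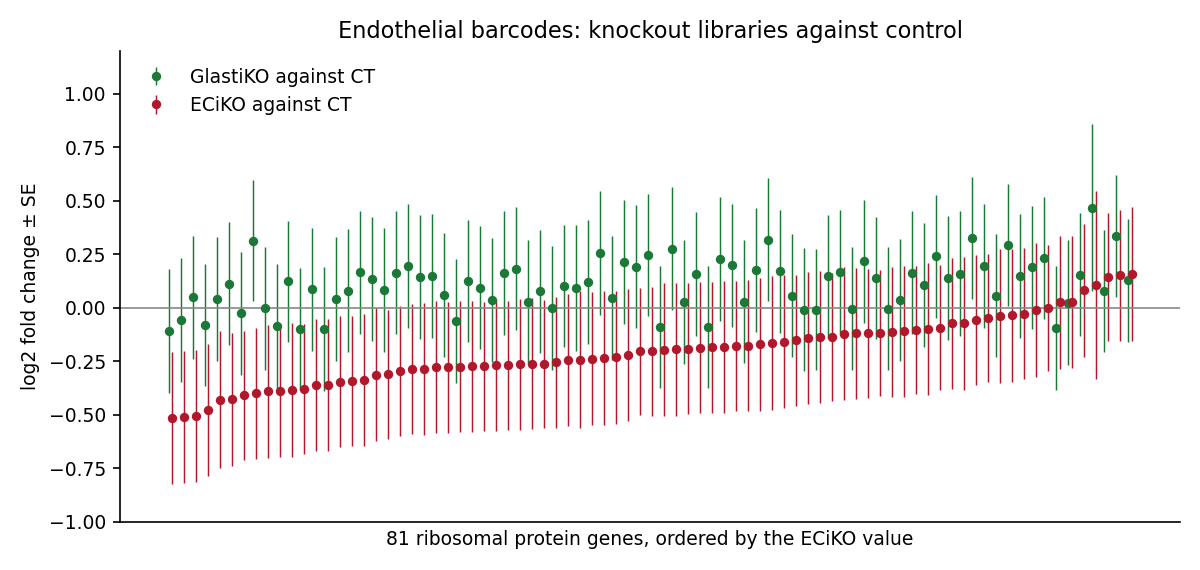
Log2 fold change with SE of each of the 81 genes in endothelial sums, GlastiKO and ECiKO against CT, ordered by the ECiKO value. ECiKO values run from -0.52 to 0.16 and GlastiKO values from -0.11 to 0.47, and none passed the threshold.

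In astroglial and oligodendrocyte barcodes each group had 1 library, so no test was possible. The astroglial median at 1000 UMIs was 1.1% in CT, 1.2% in GlastiKO and 1.4% in ECiKO, and the oligodendrocyte median 4.1%, 4.4% and 4.6%. The share in summed astroglial UMIs was 1.31% (95% exact interval 1.29 to 1.32) in CT, 1.87% (1.86 to 1.89) in GlastiKO and 1.99% (1.95 to 2.04) in ECiKO. These differences compare single libraries, not genotypes.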

How the data were processed

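The authors deposited raw UMI counts per gene and barcode, 6 libraries made with the 10x 3′ kit version 3.1. Cell Ranger 5.0.0 with mm10 is named per the labels' protocols and, for the version, per the file headers, whereas Cell Ranger 2.1.1 and Seurat 4 appear in the submitters' processing notes. No normalization was applied to the deposited counts.

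Barcodes with at least 300 genes and at most 20% mitochondrial UMIs were kept. At least 4 of 12 cycling markers made a barcode cycling. Otherwise the class with the largest part of its markers detected was taken, if at least 3 were detected and that part was at least 2 times the next. This left 264 barcodes without a class, 202 of them with at least 3 markers of 2 classes, which is how doublets were treated, since no doublet caller was run. Near the limits lay 341 barcodes (5.63%). Counts were summed per library and class with at least 20 barcodes and tested with edgeR 4.0.16 in R 4.3.3 (filterByExpr, TMM, quasi-likelihood F test). The class fit had 15 sums, library as a block and 6 residual degrees of freedom, and the group fit had 6 sums, 8700 genes and group as its term. P-values rest on a spread pooled over genes, and SE is the absolute log2 fold change over the square root of F. DESeq2 1.42.0 was run beside it. Tested on simulated data of 11214 genes, the astroglial against endothelial fit recovered 36% of 2-fold and 88% of 4-fold changes with 9 false calls, and the ECiKO against CT fit of 8339 genes made 2.

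Alternatives were another scaling, no filter on low counts, a stricter gate (5 markers, 3 times), thinning to 500 or 2000 UMIs or none, left-out genes, barcodes or libraries, and a replicate block. The members and lists were chosen with earlier results of these data known. Named genes were the 5 most and 3 least abundant members, up to 5 per direction and comparison by adjusted p with at least 20 CPM and the same sign in every library (or groups without overlap), filled to 3 by unadjusted p where fewer passed, and the paralogs with their pairs. Some genes that this rule names are not reported here. Others named were chosen after their values were seen.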

Additional observations from a re-analysis of the deposited data

Results flagged for a closer look

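In ECiKO minus CT, the median share at 1000 UMIs was 0.3 percentage points higher in astroglial barcodes and 0.1 lower (-0.1) in endothelial ones. For oligodendrocyte barcodes the difference was 0.5 points higher, beside the same -0.1 in endothelial ones. Both pairs were picked out because the classes moved in opposite directions. The difference between the classes was not tested: the astroglial and oligodendrocyte values rest on replicate 2 of each group and the endothelial value on ECiKO replicate 1 against both CT libraries. ECiKO replicate 2 was also the shallowest library, with a median of 786 UMIs per barcode, and the part of depth in this was not tested.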

How the results depend on the processing

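The fall of the 81 genes in astroglial sums kept its direction under every alternative run, with 70 to 80 called against endothelial and 78 to 81 against oligodendrocyte sums. Among these alternatives, the runs without a library numbered 1 removed no astroglial or oligodendrocyte sum. DESeq2 and edgeR with DESeq2-type scaling each called 1 gene, Rpl22l1, higher against endothelial sums. For oligodendrocyte against endothelial sums the counts of higher and lower genes were 4 and 20 with library totals, 40 higher without the library block, 1 lower without the filter on low counts, and 15 to 26 higher and 1 to 3 lower when any 1 library was left out. For mural against endothelial sums they were 24 and 1 with DESeq2, 22 and 1 with DESeq2-type scaling, 1 lower without the filter, and 3 to 12 and 1 to 3 when any 1 library was left out. Over all genes, higher calls made up 53.5% of calls for astroglial against oligodendrocyte and 63.7% with DESeq2, 53.0% for oligodendrocyte against endothelial and 38.1% with library totals, and 45.1% for mural against endothelial and 58.4% with DESeq2. The median of all genes moved from 0.16 to -0.27 between edgeR's scaling and library totals for oligodendrocyte against endothelial.

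The oligodendrocyte minus astroglial share was 3.33 points without mitochondrial UMIs, 4.82 also without the 50 top genes per class, and 2.82 in barcodes with 2 to 6% mitochondrial UMIs. Among the group differences in share, which have no test, endothelial GlastiKO minus CT was -0.175 in barcodes with 2 to 6% mitochondrial UMIs and -0.2 to 1.6 with 1 library left out. Endothelial ECiKO minus CT was -0.25 at 500 UMIs, -0.562 at 2000 UMIs, -0.264 without mitochondrial UMIs, 0.027 also without the top genes and 0.15 in barcodes with at least 1000 genes, so its sign changed with the setting. In astroglial barcodes GlastiKO minus CT was 0.4 at 500 and 0.2 at 2000 UMIs, 0.217 without thinning, 0.216 without mitochondrial UMIs, 0.299 also without the top genes, 0.2 with the stricter gate and 0.0 at 2 to 6% mitochondrial UMIs. ECiKO minus CT there was 0.4, 0.1, 0.425, 0.0959 and 0.22 under the first 5 of these and 0.05 at 2 to 6% mitochondrial UMIs. In oligodendrocyte barcodes GlastiKO minus CT was 0.2, 0.25, 0.325, 0.324 and 0.497 under the same 5 settings and 0.4 without the deepest 2% of barcodes. ECiKO minus CT there was 0.6, 0.25, 0.67, 0.601 and 1.12, then 0.6 without the deepest 2%, 0.4 at 2 to 6% mitochondrial UMIs and 0.4 with at least 1000 genes. In mural barcodes GlastiKO minus CT was 0.0875 at 2000 UMIs, -0.0425 without thinning, 0.00613 without mitochondrial UMIs, -0.473 also without the top genes and 0.1 to 0.8 with 1 library left out. The cause of these moves was not tested.

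A replicate block in the endothelial fit left 0 of the 81 genes called in both comparisons, with medians of 0.08 for GlastiKO and -0.18 for ECiKO. No label names a shared source, so the main fit did not take the numbers as pairs. Deviations of same-numbered libraries correlated weakly over genes (r of 0.07, 0.05 and 0.05), which does not settle whether they are pairs. The block nevertheless lowered the coefficient of variation of the fit from 18.3% to 13.3%, and replicates 1 were rich in endothelial and replicates 2 in glial barcodes in all 3 groups. The stricter gate left mural barcodes in 1 library and gave no mural value. The endothelial comparison is limited by depth among other things: ECiKO replicate 2 had 38226 endothelial UMIs from 21 barcodes, and CT replicate 1 had 2635849 from 732.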

Other observations

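Within the endothelial class of CT replicate 1, the fenestrated or sprouting type had a higher share than the arterial, venous and capillary types. Marker lists for arterial, venous, capillary and fenestrated or sprouting endothelium, chosen after the data were seen, assigned a barcode when at least 2 of a list's genes were detected and more than of any other list. The 31 barcodes of the fenestrated or sprouting type, whose list holds Plvap, Esm1 and Apln, had a median share of 8.3% at 1000 UMIs, beside 2.6% in 592 capillary, 2.55% in 22 arterial and 2.1% in 17 venous barcodes. Their median depth was 5410 UMIs against 3544 in capillary barcodes. The other libraries held 0 to 2 such barcodes, so this is the value of 1 library. The 6 arterial barcodes of ECiKO replicate 1 had a median of 9.15%, against 2.9% in 17 of GlastiKO replicate 1. Venous barcodes of these libraries had 5.45% (8 barcodes) and 1.8% (10), in that order. Capillary medians were 2.6% in all 3 libraries numbered 1.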
